A study of Homo sapiens with 9 samples.

Results

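Described here are 10 genes of the contractile actin machinery in SKOV3, a human cell line derived from ovarian cancer. They comprise LIMCH1, ACTN1, ACTN4, ACTA2, TAGLN, CNN1, TPM1, TPM2, MYL9 and CALD1, that is 10 of the 32378 genes in the deposited table. The list was chosen by gene name, but on measured values as well. The low level of LIMCH1 in Carbo+COM33 was known when the list was drawn up, and which values chose the other 9 genes is not recorded. The values of LIMCH1 are therefore given as a description with no p. This includes Carbo against control, because the Carbo libraries entered the contrast known for LIMCH1. The adjusted p-values of the other members place them in a fit of all genes and are not independent evidence. RNA was sequenced in 3 groups of 3 libraries: Carbo+COM33, Carbo (taken to be carboplatin, which crosslinks DNA) and control. COM33 is known only by its code name. The series asks, by its title and design text, how adding COM33 alters the response to carboplatin. All groups were grown in the same serum-containing medium, the labels give no doses or times, and no group received COM33 alone. A single cell line was used, and the labels do not say whether the 3 libraries of a group come from separate cultures, so p-values measure the spread between these libraries, which may be technical.

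Non-muscle myosin II pulls on actin filaments when its regulatory light chain is phosphorylated, by myosin light chain kinase among others. Alpha-actinins crosslink the filaments, tropomyosins coat them, and caldesmon, calponin and transgelin bind them. Many of these genes are transcribed by serum response factor (SRF), which binds a promoter element called the CArG box. Its cofactors MRTFA and MRTFB enter the nucleus when monomeric actin falls, and myocardin drives the same genes in smooth muscle.

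Total counts ran from 13851760 to 15533668 per library. Levels are given as CPM (a count scaled to the size of its library after TMM scaling), and levels of different genes are compared only per length, as FPKM (fragments per kilobase and library size). Of the 32378 genes, 16450 passed a filter on low counts and were tested. A gene is called when its adjusted p, computed by the quasi-likelihood test of edgeR and adjusted by Benjamini-Hochberg over those 16450 genes, lies under 0.05. Each of the 10 listed markers of SKOV3 and epithelial cells was detected. ERBB2, the receptor gene amplified in this line, averaged 1630 CPM in Carbo+COM33, 2415 CPM in Carbo and 2335 CPM in control, and the keratin gene KRT7 averaged 134.5, 310.3 and 304.3 CPM in the same order. Both were called lower in Carbo+COM33 than in each other group. Of the other 8 markers, 0 were called against Carbo and MSLN was called lower against control. PAX8, a transcription factor gene of this lineage, averaged 485.9 CPM in Carbo+COM33, 331 CPM in Carbo and 379.7 CPM in control and was not called. Of 8 smooth muscle and pericyte markers in the table, 4 averaged under 1 CPM over the 9 libraries, and their summed level ran from 22.1 to 25.3 CPM in Carbo+COM33, 18.8 to 23.1 CPM in Carbo and 19.5 to 21.0 CPM in control. RGS5, CSPG4, MYH11 and LMOD1 averaged 1 CPM or more. RGS5 was the highest, at 13.9 CPM in Carbo+COM33, 10.4 CPM in Carbo and 9.66 CPM in control. In the same order CSPG4 averaged 3.71, 4.57 and 5.44 CPM, MYH11 2.62, 2.56 and 1.89 CPM, and LMOD1 2.17, 1.23 and 2.04 CPM. MYOCD, which encodes myocardin, averaged 0 CPM in Carbo+COM33, 0 CPM in Carbo and 0.0222 CPM in control. DES, the muscle intermediate filament gene desmin, averaged 0.116, 0.131 and 0.18 CPM. In bulk RNA, fewer cells that express a gene and less of its RNA per cell cannot be told apart.

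RefSeq windows on GRCh38.p14, running from 250 bases before to 50 after a start, were found for 8 of the 10 genes, with 20 windows in all, and TAGLN and MYL9 were not among them. A CArG box was searched on both strands. It occurred in 1 of the 20 windows, at ACTN1, against 454 of all 35116 windows in the table, or 1.29%. With 1 mismatch allowed among the 6 central letters, and the outer CC and GG kept, it occurred in 6 of the 20 windows. That is 30%, against 8.13% of all windows. The 6 windows came from 5 of the 8 genes, beside 2698 of all 27305 genes with windows. Genes with several starts give several windows, so the windows are not independent, and such genes have more room for a match. The stretches that hold a match before a start are printed to show the letters behind this count, and the near match of LIMCH1, which lies after its start, is not. Capitals mark the 10 letters of the match, on the gene's own strand, with up to 20 bases on each side, and the CALD1 stretch is shorter after the match. That CALD1 stretch belongs to a RefSeq start that lies before the counted gene, which begins at chr7:134744252.
ACTN1 (chr14:68977708-68977757, minus strand, CArG box): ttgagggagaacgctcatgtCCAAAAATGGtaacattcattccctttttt
ACTN4 (chr19:38647528-38647577, plus strand, 1 mismatch): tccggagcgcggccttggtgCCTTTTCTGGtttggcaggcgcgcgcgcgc
ACTN4 (chr19:38694069-38694118, plus strand, 1 mismatch): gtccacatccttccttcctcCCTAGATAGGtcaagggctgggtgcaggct
ACTA2 (chr10:88952865-88952914, minus strand, 1 mismatch): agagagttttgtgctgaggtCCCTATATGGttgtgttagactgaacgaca
ACTA2 (chr10:88952815-88952864, minus strand, 1 mismatch): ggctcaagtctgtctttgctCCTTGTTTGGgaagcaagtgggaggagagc
CALD1 (chr7:134711453-134711498, plus strand, 1 mismatch): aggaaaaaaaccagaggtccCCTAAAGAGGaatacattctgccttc
The match at ACTN1 begins 171 bases before the start and the matches at ACTA2 begin 121 and 71 bases before it. A match is a description of these letters, and a window without one says nothing about the factor. The genes with a match do not form a group by level: per length, ACTN4 was among the most abundant members and ACTA2 among the least.

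The 10 members span a wide range of expression. Averaged over the 9 libraries, ACTN4 stood at 85.9 FPKM, ACTN1 at 50, TPM2 at 46.4 and TPM1 at 14.1 FPKM. CALD1 stood at 6.04, TAGLN at 4.98 and LIMCH1 at 4.72 FPKM. ACTA2 at 0.208, MYL9 at 0.136 and CNN1 at 0.042 FPKM, which are markers of differentiated smooth muscle, lay far lower. TAGLN, also used as a smooth muscle marker, stood with CALD1 and LIMCH1 instead. Of all 32378 genes, 0.991% had a higher mean FPKM than ACTN4, 24.3% had a higher one than LIMCH1 and 78.1% a higher one than CNN1. The FPKM of ACTN1 and TPM2 overlapped in range between libraries, as did those of CALD1, TAGLN and LIMCH1, so neighbours within each of these sets were not separated. MYL9 and CNN1 did not pass the filter, which left 8 members tested. ACTA2 passed narrowly, with 10 or more counts in 3 libraries.

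**Figure D1:**
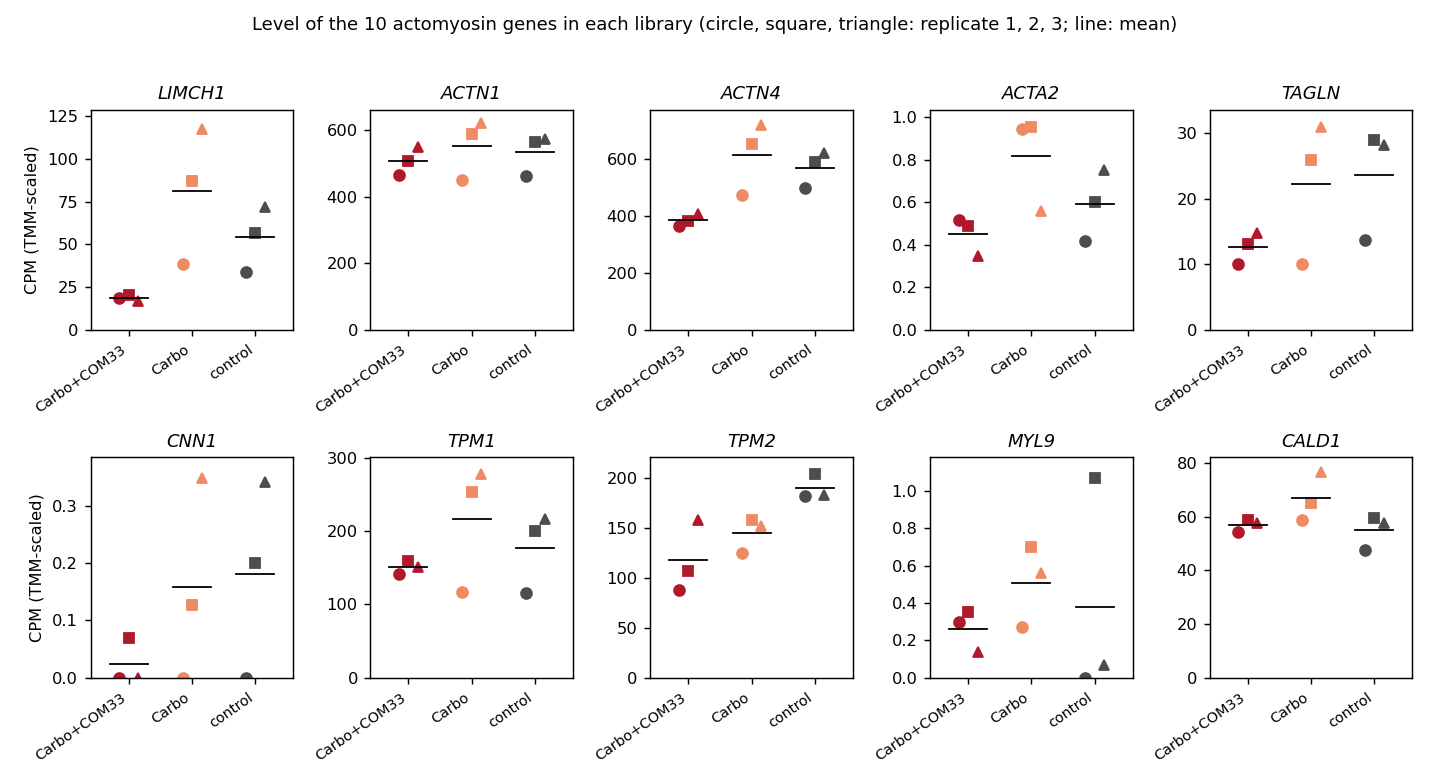
Level of each of the 10 genes in CPM (vertical axis, from 0, a scale per panel) in Carbo+COM33, Carbo and control; each point is a library, its shape the replicate number, and the line the mean of 3. LIMCH1 and ACTN4 lie lower in the 3 Carbo+COM33 libraries than in the 6 others, and replicate 1 is the lowest control library for each of the 8 tested genes.

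LIMCH1 (chr4:41359607-41700044, plus strand) encodes a LIM and calponin-homology domain protein that binds and activates non-muscle myosin II. It had 18.4, 20.6 and 16.9 CPM in Carbo+COM33 1, 2 and 3, then 38.3, 86.8 and 118 CPM in Carbo 1, 2 and 3, and 33.6, 56.8 and 71.6 CPM in control 1, 2 and 3. The 3 Carbo+COM33 libraries lay close together and below each of the 6 others, while Carbo and control overlapped. Carbo+COM33 averaged 18.6 ± 1.86 CPM and Carbo 80.9 ± 39.9 CPM (SD, n = 3 each), a log2 fold change of -2.12 (SE 0.344), or 0.231 times the Carbo level. Leaving out each of the 9 libraries in turn moved this log2 fold change between -2.45 and -1.75. Control averaged 54.0 ± 19.1 CPM, which puts the log2 fold change of LIMCH1 in Carbo+COM33 against control at -1.53 (SE 0.343), and between -1.78 and -1.28 with a library left out.

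LMO7, a relative of LIMCH1 whose product also carries LIM and calponin-homology domains, fell in Carbo+COM33. It averaged 31.8 ± 1.22 CPM in Carbo+COM33, 48.7 ± 2.84 CPM in Carbo and 41.4 ± 0.784 CPM in control (SD, n = 3 each). The log2 fold change was -0.61 against Carbo (SE 0.0852, edgeR adjusted p = 0.00297) and -0.38 against control (SE 0.0855, edgeR adjusted p = 0.0243). The call against Carbo held in 9 of 9 repeats that left out 1 library, and the call against control in 5 of 9. LIMCH1 made up 43.6% ± 1.51 of the summed FPKM of both genes in Carbo+COM33, 65.9% ± 11.9 in Carbo and 61.9% ± 9.18 in control.

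ACTN4 (chr19:38647649-38731583, plus strand) and ACTN1 (chr14:68874143-68979440, minus strand) encode the non-muscle alpha-actinins, which crosslink actin filaments and sit at focal adhesions. ACTN4 had 365.9, 383 and 408 CPM in Carbo+COM33 1, 2 and 3, then 474, 652 and 719.5 CPM in Carbo 1, 2 and 3, and 499, 588 and 623 CPM in control 1, 2 and 3. Each Carbo+COM33 library lay below the 6 others. ACTN4 fell in Carbo+COM33 by 0.67 on the log2 scale against Carbo (SE 0.134, edgeR adjusted p = 0.0144) and by 0.56 against control (SE 0.134, edgeR adjusted p = 0.0296). Against Carbo the call held in 5 of 9 repeats and was lost without Carbo 2, Carbo 3, Carbo+COM33 1 or Carbo+COM33 2 (adjusted p = 0.0879, 0.0631, 0.0779 and 0.0656). Against control it was lost without control 2, control 3, Carbo+COM33 1 or Carbo+COM33 2 (adjusted p = 0.131, 0.115, 0.141 and 0.115). After removal of a trend with GC content and length the change against control was -0.44, with an adjusted p of 0.0958.

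ACTN1 did not separate the groups. It had 467, 508.5 and 549.8 CPM in Carbo+COM33 1, 2 and 3, then 450.5, 589.7 and 622 CPM in Carbo 1, 2 and 3, and 461, 563 and 574.5 CPM in control 1, 2 and 3. The groups overlapped, and the log2 fold change was -0.12 against Carbo (SE 0.124, edgeR adjusted p = 0.599) and -0.068 against control (SE 0.124, edgeR adjusted p = 0.783). As a share of the summed FPKM of the 4 alpha-actinin genes, ACTN4 made up 55.8% ± 0.587 in Carbo+COM33, 64.8% ± 1.48 in Carbo and 63.8% ± 0.519 in control. ACTN1 made up 42.1% ± 0.752 in Carbo+COM33, 33.7% ± 0.827 in Carbo and 34.2% ± 0.508 in control (SD, n = 3 each). The highest ACTN4 share among Carbo+COM33 libraries, 56.4%, lay below the lowest of the others, 63.2%. The difference between both genes' changes was not tested.

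TPM1 (chr15:63042632-63071915, plus strand) and TPM2 (chr9:35681992-35690121, minus strand) encode tropomyosins, coiled coils that lie along the filament and gate the access of myosin and other binding proteins. TPM2 had 87.7, 107 and 158 CPM in Carbo+COM33 1, 2 and 3, then 125, 158 and 152 CPM in Carbo 1, 2 and 3, and 182, 204.5 and 184 CPM in control 1, 2 and 3. All 3 control libraries lay above the 6 treated ones, and the treated groups overlapped. TPM2 fell in Carbo+COM33 against control by 0.69 on the log2 scale (SE 0.169, edgeR adjusted p = 0.032). This call held in 4 of 9 repeats that left out 1 library. Without control 2, control 3, Carbo 2, Carbo+COM33 1 or Carbo+COM33 2 the adjusted p was 0.146, 0.0908, 0.0506, 0.141 and 0.143. Against Carbo the log2 fold change of TPM2 was -0.3 (SE 0.168, edgeR adjusted p = 0.312), and it was called without Carbo+COM33 3, at -0.58 (adjusted p = 0.032).

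TPM1 did not separate the groups. It had 141.0, 159 and 152 CPM in Carbo+COM33 1, 2 and 3, then 117, 253 and 279 CPM in Carbo 1, 2 and 3, and 115, 201.0 and 217 CPM in control 1, 2 and 3. Replicate 1 was the lowest library of each group, and the groups overlapped. The log2 fold change in Carbo+COM33 was -0.52 against Carbo (SE 0.271, edgeR adjusted p = 0.279) and -0.24 against control (SE 0.271, edgeR adjusted p = 0.64). Without Carbo 1 the change against Carbo was -0.82, with an adjusted p of 0.00671. Among the 4 tropomyosin genes, TPM4 was the most abundant per length. TPM2 made up 18.8% ± 5.04 of their summed FPKM in Carbo+COM33, 22.7% ± 1.23 in Carbo and 29.3% ± 1.23 in control. TPM3, a cytoskeletal tropomyosin gene, made up 33.0% ± 3.86 in Carbo+COM33, 26.0% ± 4.17 in Carbo and 24.5% ± 2.58 in control. In CPM, TPM3 rose in Carbo+COM33 by a log2 fold change of 0.32 against Carbo (SE 0.0851, edgeR adjusted p = 0.0499) and 0.37 against control (SE 0.0851, edgeR adjusted p = 0.0256). These calls held in 3 of 9 and 5 of 9 repeats, and TPM3 has processed copies elsewhere in the genome that could take part of its reads.

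CALD1 (chr7:134744252-134970728, plus strand) encodes caldesmon, which binds actin, myosin and tropomyosin and restrains contraction. It had 54.2, 58.9 and 57.8 CPM in Carbo+COM33 1, 2 and 3, then 58.8, 65.0 and 76.8 CPM in Carbo 1, 2 and 3, and 47.6, 59.4 and 57.7 CPM in control 1, 2 and 3. Carbo+COM33 overlapped both other groups. Its log2 fold change in Carbo+COM33 was -0.23 against Carbo (SE 0.113, edgeR adjusted p = 0.249) and 0.053 against control (SE 0.113, edgeR adjusted p = 0.818).

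TAGLN (chr11:117199321-117204782, plus strand) encodes transgelin, or SM22, an actin-bundling protein widely used as an SRF target and as a marker of smooth muscle and myofibroblasts. It had 10.0, 13.1 and 14.8 CPM in Carbo+COM33 1, 2 and 3, then 10.1, 25.8 and 30.9 CPM in Carbo 1, 2 and 3, and 13.7, 28.9 and 28.1 CPM in control 1, 2 and 3. Carbo 1 and control 1 lay within the range of the Carbo+COM33 libraries, and the other 4 libraries lay above it. The log2 fold change of TAGLN in Carbo+COM33 was -0.82 against Carbo (SE 0.353, edgeR adjusted p = 0.194) and -0.9 against control (SE 0.353, edgeR adjusted p = 0.143). Without Carbo 1 it was called in both, at -1.16 (adjusted p = 0.00524) and -0.9 (adjusted p = 0.0217). Of 446 exonic bases that TAGLN shares with PCSK7 on the opposite strand, the reads cannot be assigned, because whether counting used strand is not given in the sources used here. PCSK7 had 2500 counts over the 9 libraries against 2578 for TAGLN. TAGLN2, the broadly expressed relative, made up over 97% of the family in each group, and TAGLN made up 1.29% ± 0.136 of its summed FPKM in Carbo+COM33, 2.53% ± 1.31 in Carbo and 2.16% ± 0.77 in control. The summed level of 8 fibroblast markers, nearly all of it COL1A1, ran from 6.11 to 13.1 CPM in Carbo+COM33, from 10.3 to 39.8 CPM in Carbo and from 10.3 to 40 CPM in control. The other 7 fibroblast markers averaged under 1 CPM. The part of this in the result for TAGLN was not tested.

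ACTA2 (chr10:88935074-88991339, minus strand), which encodes smooth muscle alpha-actin, had 7, 7 and 5 counts in Carbo+COM33 1, 2 and 3, then 14, 15 and 8 counts in Carbo 1, 2 and 3, and 6, 9 and 11 counts in control 1, 2 and 3. Each Carbo+COM33 library lay below each Carbo library, and Carbo+COM33 overlapped control. The log2 fold change was -0.86 against Carbo (SE 0.419, edgeR adjusted p = 0.249) and -0.39 against control (SE 0.442, edgeR adjusted p = 0.641). ACTA2 shares 380 exonic bases with FAS on the opposite strand, and FAS had 1066 counts in all against 82 for ACTA2, and reads from that stretch cannot be assigned without the strand setting. ACTA2 made up 0.0133% ± 0.00248 of the summed actin FPKM in Carbo+COM33, 0.0225% ± 0.00987 in Carbo and 0.017% ± 0.00374 in control, and ACTG1 and ACTB, the cytoplasmic actin genes, held nearly all the rest.

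MYL9 (chr20:36541484-36551447, plus strand), a myosin regulatory light chain gene of smooth muscle, had 4, 5 and 2 counts in Carbo+COM33 1, 2 and 3, then 4, 11 and 8 counts in Carbo 1, 2 and 3, and 0, 16 and 1 counts in control 1, 2 and 3. The summed counts were 11 in Carbo+COM33, 23 in Carbo and 17 in control, with exact 95% Poisson intervals of 5.49 to 19.7, 14.6 to 34.5 and 9.9 to 27.2 that cover counting error only. The intervals are wide, and no test was made. The light chain genes in use were MYL12B, with 81.0% ± 1.33 of the summed FPKM of 3 genes in Carbo+COM33, 81.5% ± 1.4 in Carbo and 81.2% ± 0.139 in control, and MYL12A with nearly all the rest. MYL12A and MYL12B are near-identical neighbours, and reads could be split between them.

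CNN1 (chr19:11538717-11550323, plus strand), the smooth muscle calponin gene, had 0, 1 and 0 counts in Carbo+COM33 1, 2 and 3, then 0, 2 and 5 counts in Carbo 1, 2 and 3, and 0, 3 and 5 counts in control 1, 2 and 3. Summed, that is 1, 7 and 8 counts, with exact 95% Poisson intervals of 0.0253 to 5.57 in Carbo+COM33, 2.81 to 14.4 in Carbo and 3.45 to 15.8 in control, and no test was made. CNN3, a calponin gene of non-muscle cells, made up 82.5% ± 1.59 of the family's FPKM in Carbo+COM33, 76.9% ± 2.62 in Carbo and 74.6% ± 2.7 in control, and CNN2 most of the rest.

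**Figure D2:**
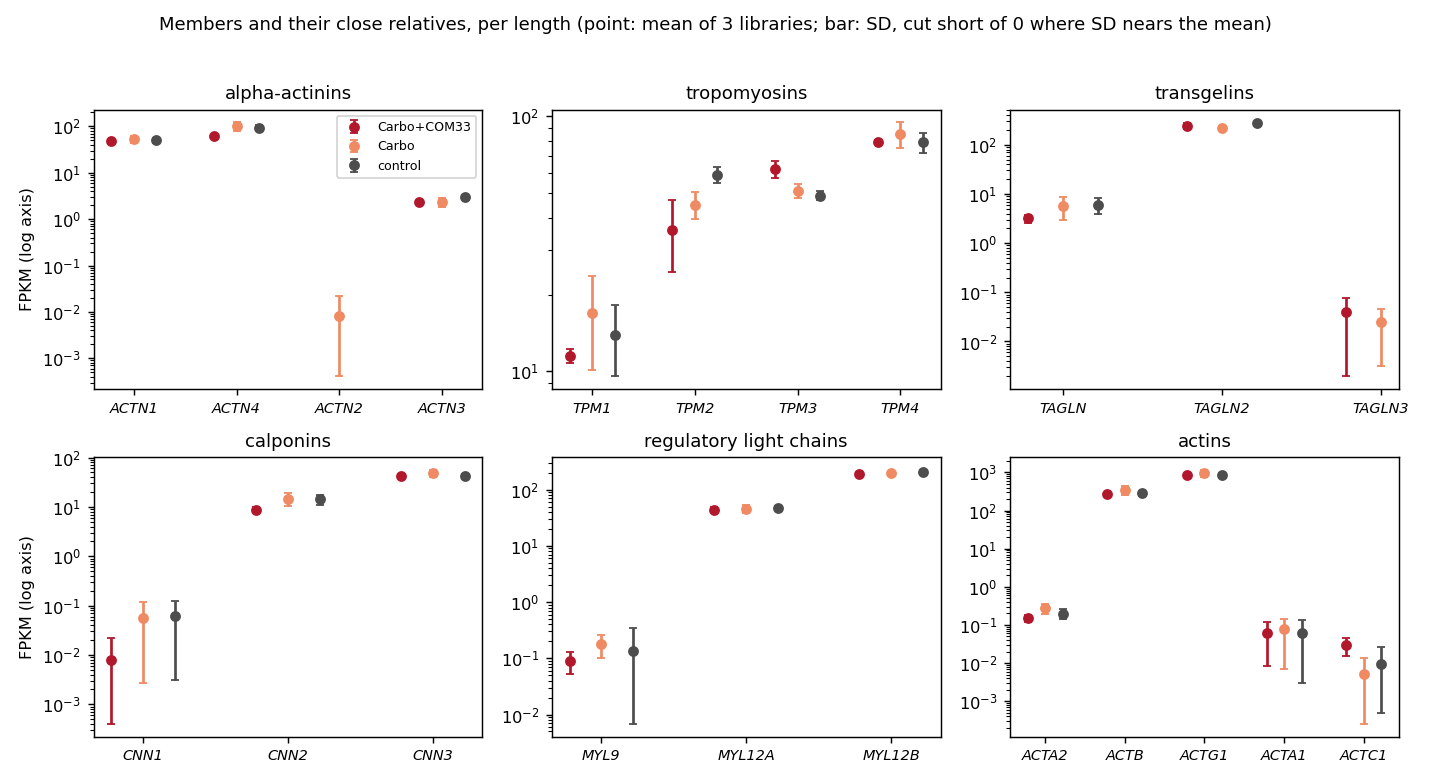
Mean FPKM of the members and their relatives (vertical axis, logarithmic; points, mean of 3 libraries; bars, SD, cut short of 0 where the SD nears the mean) in Carbo+COM33, Carbo and control; genes at 0 in all 3 libraries of a group have no point. ACTA2, MYL9 and CNN1 lie below 1 FPKM in each group, where ACTG1, MYL12B and CNN3 lie above 40 FPKM.

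The members are counted here as a list, which was drawn up with results of these data known, so its counts and medians are a description and support nothing. LIMCH1 is left out of them where Carbo+COM33 is compared. Against Carbo, 0 of the 7 other tested members rose and 1 fell, ACTN4, where 2.43% of all tested genes were called higher and 2.53% lower. Their log2 fold changes ran from -0.86 to -0.12, all negative, with a median of -0.52 against -0.0064 over all tested genes. In 2 of the 7, ACTN4 and ACTA2, the groups did not overlap, which was so for 23.7% of all tested genes. The call of ACTN4 was lost without Carbo 2, Carbo 3, Carbo+COM33 1 or Carbo+COM33 2. TAGLN and TPM1 were called as well without Carbo 1, and TPM2 without Carbo+COM33 3.

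Against control, 0 of the 7 rose and 2 fell in Carbo+COM33, ACTN4 and TPM2, where 3.2% of all tested genes were called higher and 3.09% lower. The log2 fold changes ran from -0.9 for TAGLN to 0.053 for CALD1, and 6 of 7 were negative. Their median was -0.39 against -0.014 over all tested genes. In ACTN4 and TPM2 the groups did not overlap, against 28.7% of all tested genes. Neither ACTN4 nor TPM2 was called without control 2, control 3, Carbo+COM33 1 or Carbo+COM33 2. TPM2 was not called without Carbo 2 either, and TAGLN was called as well without Carbo 1. Both comparisons share the Carbo+COM33 libraries and are not independent of each other.

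**Figure D3:**
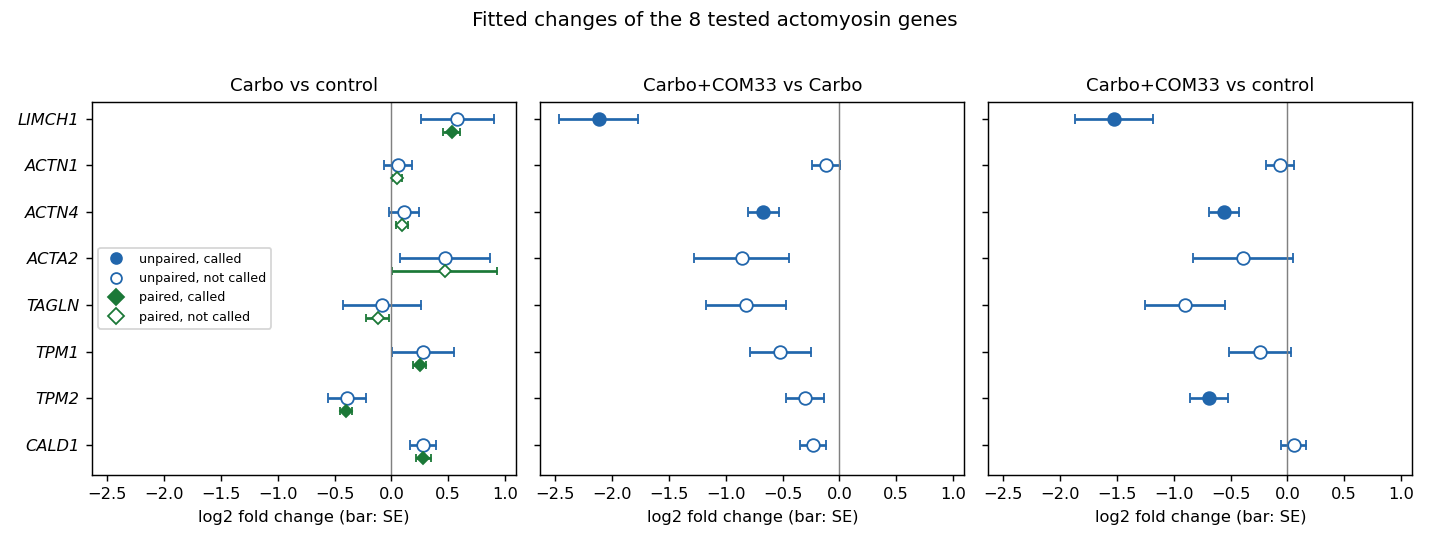
Log2 fold change (horizontal axis, bars SE) of the 8 tested members in the 3 comparisons, 1 per panel; circles are the unpaired fit, diamonds the paired fit by replicate number, and filled symbols are called. LIMCH1 was chosen with its values known, so its filled symbols are a description and no call. In Carbo+COM33 vs Carbo the 7 other members lie left of 0, from -0.86 for ACTA2 to -0.12 for ACTN1.

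Carbo against control gave small changes, called in the fit that paired libraries by replicate number. In the unpaired edgeR fit 0 of 8 members were called, and 0.0% of all tested genes, although 2748 genes, or 16.7%, had an unadjusted p under 0.05, TPM2 and CALD1 among them. DESeq2 called 133 genes, and 0 of the members. Without Carbo 1, the unpaired log2 fold change of LIMCH1 was 0.92. Same-numbered Carbo and control libraries deviated together, which is the reason for the paired fit. The paired fit used the Carbo and control libraries alone and left 2 residual degrees of freedom. That fit called 11.2% of all tested genes higher and 11.5% lower in Carbo. Of the 8 members it called 3 higher, LIMCH1, TPM1 and CALD1, and 1 lower, TPM2. LIMCH1 stands in this count as a description.

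The Carbo libraries also entered the contrast known when LIMCH1 was chosen, so its rise in Carbo is a description with no p. In the paired fit its log2 fold change in Carbo was 0.53 (SE 0.0776, edgeR adjusted p = 0.000158), and its Carbo level was 1.14, 1.53 and 1.64 times that of control in replicates 1, 2 and 3. TPM1 rose by 0.25 (SE 0.0572, edgeR adjusted p = 0.00485), with ratios from 1.02 to 1.29. CALD1 rose by 0.28 (SE 0.0654, edgeR adjusted p = 0.00536), with ratios of 1.24, 1.09 and 1.33. TPM2 fell by 0.4 (SE 0.0526, edgeR adjusted p = 7.65e-05), with ratios of 0.688, 0.773 and 0.827, and it was the single member whose Carbo and control libraries did not overlap, against 22.5% of all tested genes. ACTN4 and ACTN1 had log2 fold changes of 0.093 and 0.047 and ratios on both sides of 1. TAGLN, at -0.12, and ACTA2, at 0.47, also had ratios on both sides of 1. TPM1 was not called without replicate 2 (adjusted p = 0.11), and ACTN4, at 0.18, was called without replicate 1 (adjusted p = 0.00299).

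GC content moved with Carbo. In the paired fit the log2 fold changes of genes over 60% GC had a median of -0.24, and those of genes under 40% GC a median of 0.16. Genes from 40 to 60% GC, where all 8 tested members lie, had a median of -0.0043. GC content was that of a gene's longest transcript. It was 41.6%, 43.4% and 45.9% for CALD1, LIMCH1 and TPM1, the members that rose, and 55.3% for TPM2, which fell. For ACTN1, ACTA2, TAGLN and ACTN4, which were not called, it was 49.9%, 51.8%, 57.2% and 58.6%. Their log2 fold changes in the paired fit were 0.047, 0.47, -0.12 and 0.093. With a trend in GC content and length removed from the paired fit, LIMCH1 stood at 0.44. TPM1 then stood at 0.2 (edgeR adjusted p = 0.0203) and TPM2 at -0.28 (adjusted p = 0.00107). CALD1 was then at 0.16 and not called (adjusted p = 0.137), and ACTN4 was called at 0.25 (adjusted p = 0.00217).

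Libraries numbered 1 stood low for the members. Replicate 1 was the lowest Carbo+COM33 library in 6 of 8 tested members, the lowest Carbo library in 7 and the lowest control library in 8. Over all tested genes replicate 1 was the lowest in 33.1% for Carbo+COM33, 39.8% for Carbo and 38.0% for control. Over the 8 tested members, the highest library of Carbo+COM33 had from 1.09 to 1.8 times the level of the lowest, with TPM2 the most spread and a median of 1.2, against a median of 1.23 over all tested genes. In Carbo this ratio was lowest for TPM2 and reached 3.07 for LIMCH1, with a median of 1.61 against 1.27, and in control it ran from 1.12 for TPM2 to 2.13 for LIMCH1, with a median of 1.53 against 1.22. The part of this library spread in the group differences was not tested.

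Besides the members, 70 genes of the machinery were listed, of which 69 were in the table and 61 were tested. Against Carbo, 4 of the 61 rose and 3 fell in Carbo+COM33, and against control 5 rose and 2 fell. These are 6.56% and 4.92%, and 8.2% and 3.28%, beside 2.43% and 2.53%, and 3.2% and 3.09%, of all tested genes. Their median log2 fold changes were -0.062 and -0.053. Carbo against control gave 0 of 61 in the unpaired edgeR fit. There 18 had an unadjusted p under 0.05, as did 16.7% of all tested genes, and DESeq2 called 1. The paired fit called 20 higher and 10 lower, or 32.8% and 16.4%, beside 11.2% and 11.5% of all tested genes. No test compared this list with the members.

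Of the relatives of the members, 11 of 16 were tested. Against Carbo 1 rose and 1 fell in Carbo+COM33, TPM3 and LMO7, and the same held against control. Over all tested genes 2.43% were called higher and 2.53% lower against Carbo, and 3.2% and 3.09% against control. In the paired fit of Carbo against control ACTB stood at 0.25, LMO7 at 0.23 and CNN3 at 0.21, all called higher, and TAGLN2 at -0.29, called lower. With the GC and length trend removed LMO7 was no longer called (edgeR adjusted p = 0.42). ACTB has processed copies in the genome that could take part of its reads.

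SRF itself averaged 72.9 ± 12.2 CPM in Carbo+COM33, 74.5 ± 5.11 CPM in Carbo and 84.8 ± 11.3 CPM in control (SD, n = 3 each), and its groups overlapped. Its log2 fold change in Carbo+COM33 was -0.031 against Carbo (SE 0.124, edgeR adjusted p = 0.918) and -0.22 against control (SE 0.124, edgeR adjusted p = 0.308). MRTFA averaged 48.1 ± 6.5 CPM in Carbo+COM33, 56.3 ± 5.02 CPM in Carbo and 62.4 ± 1.33 CPM in control. It did not pass against Carbo (-0.23, edgeR adjusted p = 0.225) or control (-0.38, edgeR adjusted p = 0.0533), though Carbo+COM33 and control did not overlap. MRTFB averaged 87.5 ± 7.05 CPM in Carbo+COM33, 94.1 ± 0.497 CPM in Carbo and 77.0 ± 4.49 CPM in control, and did not pass in Carbo+COM33 against Carbo (-0.11, edgeR adjusted p = 0.489) or control (0.18, edgeR adjusted p = 0.2). In the paired fit of Carbo against control MRTFB rose by 0.29 (edgeR adjusted p = 0.0014) and SRF fell by 0.18 (edgeR adjusted p = 0.0271), and SRF stood at 0.014 once the GC and length trend was removed. Of the 6 tested genes of SRF and its cofactors, 0 were called in the unpaired edgeR fit of any comparison. At an unadjusted p under 0.05 there were 0 in Carbo+COM33 against Carbo, 3 in Carbo+COM33 against control and 1 in Carbo against control. Over all tested genes these shares were 22.4%, 24.0% and 16.7%. DESeq2 called 0, 1 and 0 of the 6 in that order, beside 1340, 1563 and 133 of all 16450 tested genes. Transcript levels say nothing of where the cofactors' proteins lie in the cell.

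Other SRF targets moved in both directions. Of 20 tested, 1 rose and 1 fell in Carbo+COM33 against Carbo, and likewise against control. That is 5% in each direction, beside 2.43% and 2.53% of all tested genes against Carbo, and 3.2% and 3.09% against control. CYR61 (now CCN1), a matricellular target of SRF and YAP, averaged 86.3 ± 6.96 CPM in Carbo+COM33 and 144 ± 37.2 CPM in Carbo, a log2 fold change of -0.73 (SE 0.158, edgeR adjusted p = 0.0206) that held in 5 of 9 repeats. PDLIM7, a PDZ and LIM scaffold gene, fell by 0.68 against control (SE 0.187, edgeR adjusted p = 0.0493), in 4 of 9 repeats. LIMA1, which encodes the actin-bundling protein EPLIN, rose by 0.36 against Carbo (SE 0.0877, edgeR adjusted p = 0.0375) and by 0.57 against control (SE 0.088, edgeR adjusted p = 0.00427), in 4 and 9 of 9 repeats. In the paired fit of Carbo against control 5 of the 20 rose, or 25%, beside 11.2% of all tested genes, with CTGF (now CCN2) at 0.63, PDLIM5 at 0.28 and CYR61 at 0.26 among them, and 4 fell, or 20%, beside 11.5%, with CSRP1 at -0.27. PDLIM5 was not called there with the GC and length trend removed (edgeR adjusted p = 0.117).

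**Figure D4:**
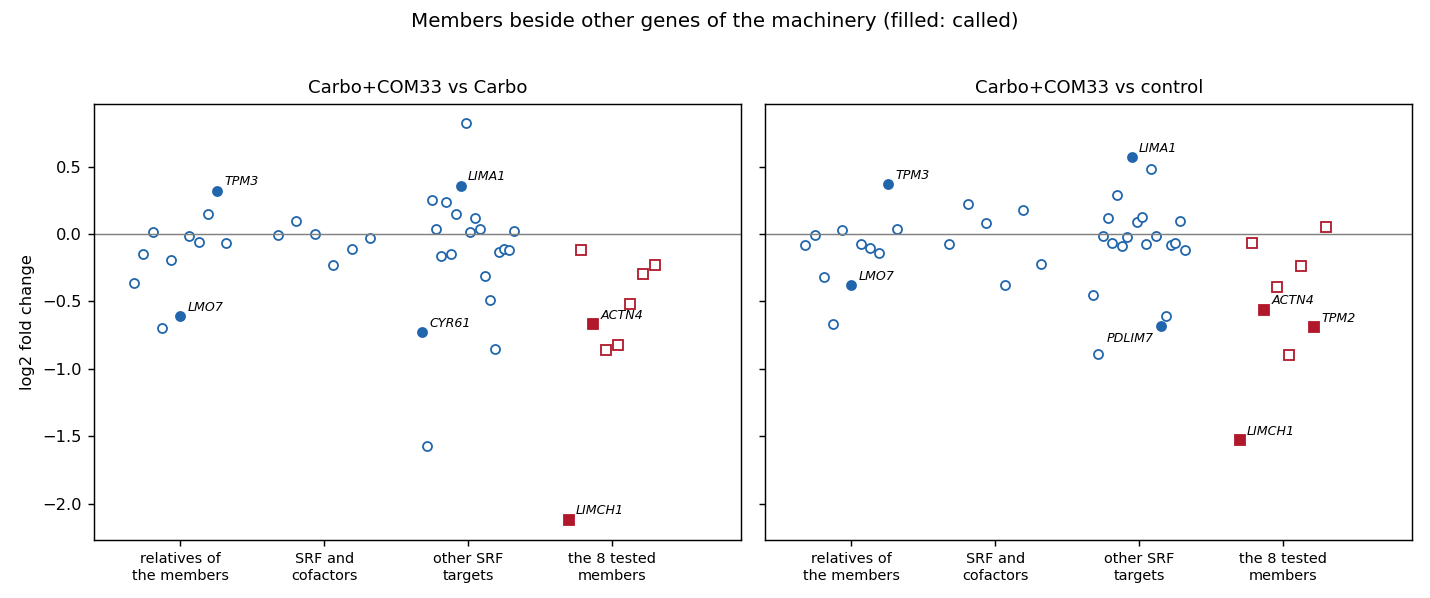
Log2 fold change (vertical axis) of the tested genes of 3 lists (circles) and of the 8 tested members (squares) for Carbo+COM33 against Carbo (left) and against control (right); filled symbols are called and named. The lists scatter on both sides of 0, with TPM3 and LIMA1 called above it in both panels. Of the 11 relatives, 8 lie below 0 in each panel. The members were chosen with results of these data known. The filled squares of LIMCH1 are a description and no call. With LIMCH1 left out, 7 of 7 and 6 of 7 lie below 0.

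The members did not share a single profile. The root-mean-square difference between 2 genes' log2 CPM, each centred on its own mean over the 9 libraries, was taken for all 28 pairs of tested members. ACTN1 and CALD1 were closest, at 0.119, and ACTN1 and ACTN4 next, at 0.248. The profiles were not scaled by spread, so 2 genes that vary little lie close whatever their pattern. The differences of LIMCH1 ran from 0.561 to TAGLN up to 0.863 to ACTN1. Among the 16449 other tested genes, those nearest to LIMCH1 were LINC02432, a long non-coding RNA, at 0.151, RBMS3, an RNA-binding protein gene, at 0.161, and SEMA3A, a secreted semaphorin gene, at 0.19. LINC02432 averaged 5.91 ± 0.783 CPM in Carbo+COM33, 22.8 ± 11.3 CPM in Carbo and 17.0 ± 5.2 CPM in control. SEMA3A averaged 6.98 ± 0.447, 29.7 ± 17.8 and 17.0 ± 7.38 CPM in the same order. Those nearest to TAGLN were LINC01411 at 0.157, the WNT ligand gene WNT10A at 0.168 and the polarity gene PARD3B at 0.177. WNT10A averaged 14.4 ± 3.46 CPM in Carbo+COM33, 29 ± 12.7 CPM in Carbo and 25.7 ± 9.95 CPM in control. These profiles include the low replicate 1 libraries of Carbo and control, which all of these genes share. The nearest genes were picked on these same 9 libraries, so their low levels in the same libraries follow from that choice.

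**Figure D5:**
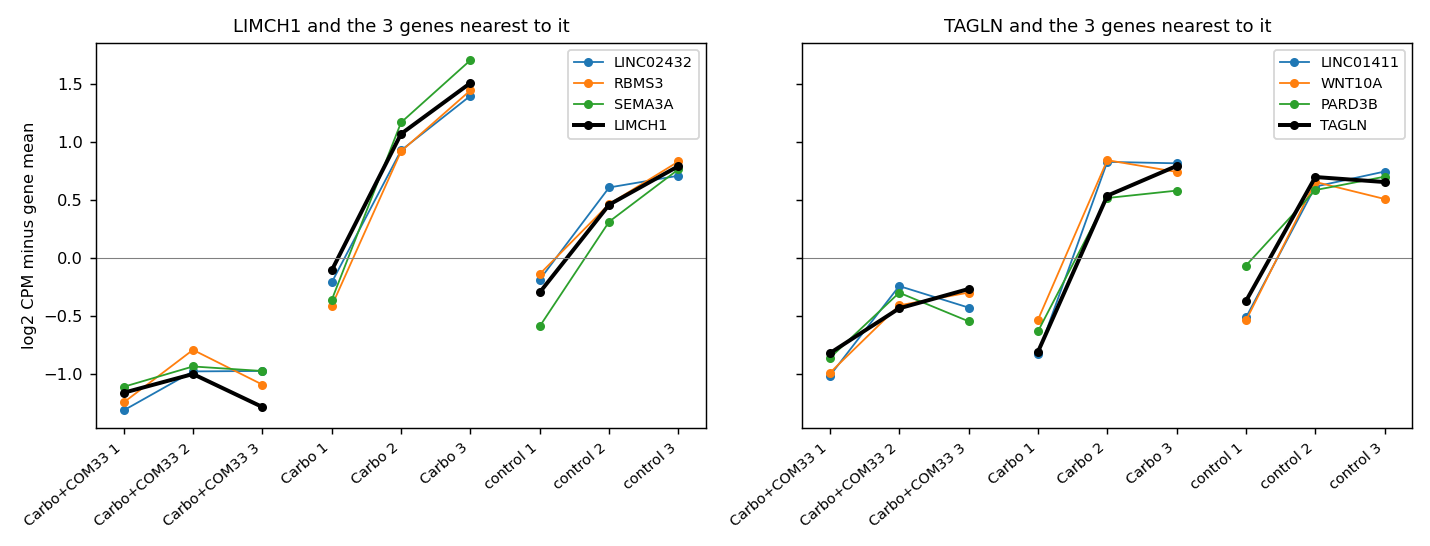
Centred log2 CPM (vertical axis) in each of the 9 libraries (horizontal axis, Carbo+COM33, Carbo, control) for LIMCH1 and TAGLN (thick lines) and the 3 genes nearest to each (thin lines). All 8 profiles lie below 0 in the 3 Carbo+COM33 libraries and are lowest in replicate 1 within Carbo and within control. The genes of the thin lines were picked for likeness over these same libraries, so this follows from the choice.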

How the data were processed

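RNA was sequenced in 9 libraries of SKOV3 cells, 3 per group, as labelled. Per the labels, poly-T beads selected messenger RNA and a NEBNext Ultra kit made the libraries. The authors deposited whole-number read counts per gene, and FPKM values computed from them with the count, the gene length and the library total. The build was GRCh38 and the tools named were HISAT2, HTSeq 0.11.2 and DESeq2 1.26.0, per the submitters' processing notes; settings, including strand, are not given in the sources used here. All 32378 gene IDs matched GENCODE 29, which gave coordinates and overlaps. The FPKM lengths equalled the union of exons for 32283 genes, within 0.5 bp.

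Counts were fitted with edgeR 4.0.16 (filterByExpr with a minimum count of 10, TMM, quasi-likelihood test, 16450 genes, 6 residual degrees of freedom), one coefficient per group over all 9 libraries. The SE is the log2 fold change divided by the square root of F. No pair of libraries held identical counts. Deviations of same-numbered Carbo and control libraries from their group means correlated at 0.824, 0.565 and 0.748 across 6607 genes. The numbers were therefore taken as pairs there, and a fit with the replicate number as a block is given beside the unpaired one. Each block fit used only the libraries of the 2 groups compared and left 2 residual degrees of freedom, fewer still without a replicate. Alternatives were RLE scaling, no filter, DESeq2 1.42.0, the 2 groups alone, limma 3.58.1 on log2 FPKM with pseudocounts of 1 and 0.1, a spline correction for GC content and length, the block, and each library left out. R 4.3.3, Python 3.11.15, pandas 2.3.3, numpy 2.4.6 and matplotlib 3.10.9 were used.

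The members, the other gene lists and the tests were chosen with earlier results of these data known. All 10 members are named. Of each other list, at most 4 called genes with the largest log2 fold change are named per comparison (paired fit for Carbo vs control), with SRF, MRTFA and MRTFB always, and the 3 genes nearest to LIMCH1 and to TAGLN. The named genes and counts of 1 list are not reported here; its genes stand in the counts over all other genes.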

Additional observations from a re-analysis of the deposited data

How the results depend on the processing

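Of 429 repeats of the 24 member changes under 18 alternatives, 375 kept their direction and side of the threshold, 24 lost a call, 21 gained one and 9 changed sign, the last among changes that were not called. Members called in Carbo vs control were 0; the count was 2 with no filter, 4 with the replicate block and 4 with the replicate block and the GC and length trend removed, and 0 to 1 with a library left out (3 to 5 in the block). LIMCH1 is left out where Carbo+COM33 is compared, and calls with a library left out are given above. Against Carbo the call of ACTN4 held under every alternative that kept all libraries. TAGLN and TPM1 were called there as well with no filter. Against control ACTN4 and TPM2 were not called in limma on log2 FPKM with either pseudocount. ACTN4 was not called either with the GC and length trend removed and no block. TAGLN was called against control with no filter, with the 2 groups alone, and in the block with or without the trend removed. Of the other genes, 0 were called in Carbo vs control, but 5 with no filter, 1 by DESeq2, 30 with the replicate block, 22 with the block and trend removed, and 0 to 6 with a library left out. In Carbo+COM33 vs Carbo the 7 became 16 with no filter, 11 by DESeq2, 4 with the 2 groups alone, 3 and 2 by limma with pseudocounts of 1 and 0.1, and 2 to 18 with a library left out. In Carbo+COM33 vs control the 7 became 15 with no filter, 4 and 4 by limma, 13 with the block and trend removed, and 2 to 12 with a library left out. Over all tested genes the block called 11.2% higher and 11.5% lower in Carbo vs control. DESeq2 called 133 of all 16450 tested genes in Carbo vs control. It called 1340 in Carbo+COM33 vs Carbo and 1563 in Carbo+COM33 vs control. For the other alternatives no share over all tested genes is given, so those counts are not read as particular to the members or the other genes. The cause was not tested. With a library left out, the Carbo vs control log2 fold change ran from -0.037 to 0.18 for ACTN1, -0.018 to 0.27 for ACTN4 and -0.39 to 0.27 for TAGLN. CALD1 in Carbo+COM33 vs control ran from -0.034 to 0.11 and SRF in Carbo+COM33 vs Carbo from -0.17 to 0.064. With the GC and length trend removed, without and with the replicate block, Carbo vs control gave 0.057 and 0.022 for TAGLN, 0.011 and 0.014 for SRF, and 0.051 and 0.053 for MRTFA. In the comparisons with Carbo+COM33 the numbers share no more than a number: same-numbered libraries correlated at -0.015, 0.138 and -0.388 with Carbo and 0.0851, 0.101 and -0.42 with control. A replicate block there kept the call of ACTN4 in both and of TPM2 against control, and TAGLN was called against control as well. Low counts limit what can be said of ACTA2, MYL9 and CNN1. The 429 repeats and the count for Carbo vs control include LIMCH1, whose changes are a description.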
